A study of Mus musculus with 28 samples.

Results

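To ask whether the conditional *Braf* floxV600E allele altered colon organoids before Cre was switched on, the vehicle-treated cultures of 4 organoid lines that carried the allele were compared with those of 3 lines that did not. The lines with the allele were Col286 and Col291 (BAC) and Col287 and Col312 (BPAC), and those without it were Col288 (AC) and Col290 and Col313 (PAC). Each line came from 1 donor mouse and was sequenced from 2 cultures, so that 14 of the 28 samples of the series entered, 8 with and 6 without the allele, and the line was taken as the unit. Cultures were assigned to the groups by their genotype labels.

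All 7 lines, the controls included, were C57BL/6N, were homozygous for *Apc* flox and carried the Villin::CreERT2 transgene. The BAC lines had 1 copy of *Braf* floxV600E beside a wild-type allele, the PAC lines had 1 copy of *Trp53* LSL-R172H, the BPAC lines had both and the AC line had neither. The cultures described here received ethanol (EtOH) for 24 hours, and RNA was taken 3 days later, while their partners received 3.5 µM 4-hydroxytamoxifen (4-HT). The Villin promoter confines the recombinase to intestinal epithelium, and the donors' ages are not given in the sources used here. The methods describe 2 donor mice per genotype, but the labels used here give AC as 1 line, so that *Trp53* LSL-R172H was carried by 2 of the 4 lines with the *Braf* allele and by 2 of the 3 lines without it.

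BRAF is a kinase that passes signals from RAS to MEK and on to ERK, and the V600E change leaves it active without RAS. In the floxed allele a minigene of the last wild-type exons lies between loxP sites ahead of a mutated exon, so that wild-type BRAF is made until Cre removes the minigene. CreERT2 is a recombinase fused to a modified estrogen receptor, which stays out of the nucleus until 4-HT binds it. Recombination without 4-HT is known as leak. In intestinal epithelium ERK signaling drives a set of feedback genes, among them Sprouty proteins, dual-specificity phosphatases and ETS factors, so that these transcripts report on the activity of the pathway.

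*Braf* (ENSMUSG00000002413) spans positions 39603237 to 39725463 of chromosome 6 (GRCm38) and is read from the minus strand. The deposited counts are per gene, so reads from the wild-type allele, the minigene and the mutated exon were not told apart here.

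The 14 cultures held from 20577276 to 29135706 counts on 13519 genes, and the sums per line held from 47029195 to 55577758. The 8 epithelial markers that were looked up, *Epcam*, *Cdh1*, *Krt8*, *Krt18*, *Krt19*, *Vil1*, *Cdx1* and *Cdx2*, were present in every line, with a summed level of 19720 to 22920 CPM (counts scaled to library size, TMM-adjusted) in lines with the allele and 18670 to 23070 CPM in lines without. Of 21 markers of fibroblasts, muscle, immune cells, endothelium and Paneth cells, 7 were among the genes tested, with a summed level of 34.67 to 94.67 CPM with and 50 to 84.83 CPM without the allele. *Lyz1*, a Paneth cell lysozyme gene, made up most of that sum in every line, and *Cd3e*, at 0.2319 to 0.9966 CPM, was the single marker at an unadjusted p below 0.05 (lower with the allele). The 14 others, the fibroblast collagens, *Acta2*, *Des*, *Ptprc* and *Kdr* among them, were not among the genes tested. The 2 cultures of a line differed by more than counting noise in each line, with a chi-square per degree of freedom of 32.4 to 165. They are labelled as separate samples and described as separate passages, so p-values over lines measure the spread between 7 mice, each seen through 2 passages.

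No gene differed between lines with and without the allele at the adjusted p of 0.01 (edgeR's quasi-likelihood test on counts summed per line, 13484 genes tested, percent past the threshold 0). The lowest adjusted p was 0.5355, and without adjustment 1244 genes (9.23%) had a p below 0.05, 477 of them higher (3.54%) and 767 lower (5.69%) with the allele. Limma-voom called 0 genes and had 1267 at an unadjusted p below 0.05, whereas DESeq2 called 4 and had 1401. Among the genes called by DESeq2 were *Ly6e*, higher with the allele, and *Rbms3* and *St8sia6*, lower with it. These shares moved with the lines that entered. With 1 line left out they were lowest without Col290, at 1.27% higher and 2.25% lower, and without Col288, at 1.63% and 2.39%. They were 1.88% and 2.83% without Col291, 2.63% and 4.15% without Col286, and 2.91% and 3.85% without Col287. They were highest without Col312, at 7.64% and 9.66%, and without Col313, at 7.3% and 8.51%, and the counts given further on for lists with 1 line left out stand against the share of that fit. For 962 genes (7.13%) the levels of all 4 lines with the allele lay above, or all below, those of the 3 lines without it. The 95% interval of the difference lay within 1 log2 unit of 0 for 11632 of the 13484 genes (86.3%), and the median standard error was 0.12 log2 units, so that for these genes a difference of 2-fold or more lay outside the interval. Over all genes tested the median difference was 0.001.

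*Braf* itself had a lower transcript level in the lines with the floxed allele. Its level was 20.38 CPM in Col286, 21.61 in Col287, 19.17 in Col291 and 21.53 in Col312, against 24.1 CPM in Col288, 25.37 in Col290 and 23.95 in Col313. All 4 lines with the allele thus lay below all 3 without it. Among single cultures the levels ran from 18.71 to 23.16 CPM (median 20.04) with and from 22.79 to 25.86 CPM (median 24.87) without the allele, and the ranges overlapped at the edge. The difference was -0.24 log2 units (standard error 0.08), a percent difference of -15.6 with a 95% interval from -25.1 to -4.83. The two-sided exact permutation test over the 35 ways to choose 4 of 7 lines gave p = 0.0286, the smallest p these lines allow, whereas the adjusted p over all genes tested was 0.5355 in edgeR's quasi-likelihood test. The permutation test was run for each of the 88 genes named by rule, without adjustment of its own. *Braf* stayed lower in the lines with the allele in each alternative fit, and the 4-HT-treated cultures of these lines did not differ from their EtOH partners in *Braf* beyond the error (log2 change 0.04, edgeR adjusted p = 0.598).

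The other kinases and adaptors of the pathway differed little between the line groups. Of the 20 genes looked up, 19 were tested and none passed the threshold, with a median difference of -0.02 and *Braf* as the lowest at an unadjusted p below 0.05. *Araf*, the X-linked member of the family, ran from 106.7 to 113.8 CPM with and from 99.01 to 104.1 CPM without it, and its 4 lines with the allele lay above the 3 without by 0.09 (standard error 0.06, edgeR adjusted p not past the threshold). The RAS genes *Nras* and *Hras* differed by -0.10 and -0.03, and the kinase genes *Map2k1*, *Map2k2* and *Mapk3* by 0.14, 0.02 and 0.09. The scaffold gene *Ksr1* had the largest positive difference of the group, 0.42 (standard error 0.21), and its lines overlapped.

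**Figure D1:**
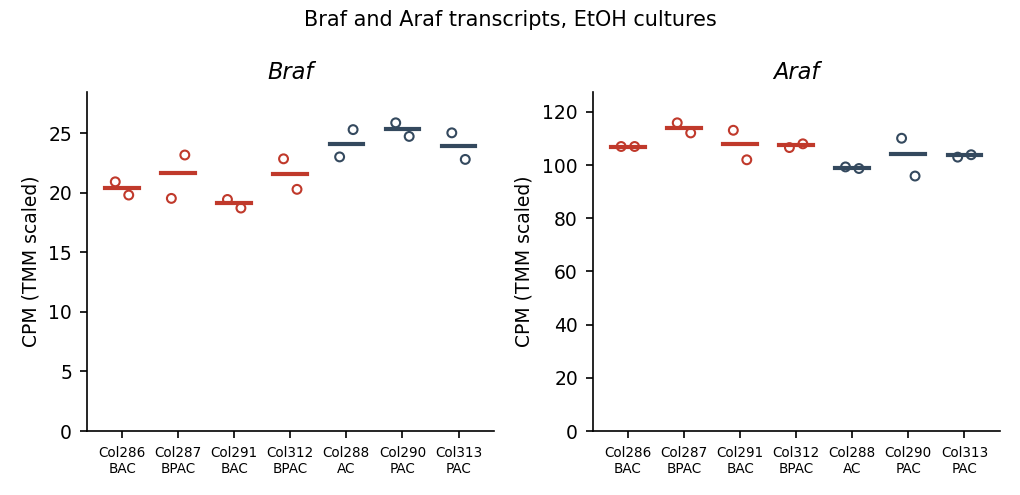
Transcript level in CPM, scaled by TMM, of *Braf* and *Araf* in EtOH cultures of the 7 lines, with the axis from 0. Open circles are the 2 cultures of a line, short horizontal lines the level of their summed counts, with red for lines with and dark blue for lines without the *Braf* floxV600E allele. For *Braf* the highest line with the allele is at 21.61 CPM and the lowest without it at 23.95 CPM.

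None of the ERK target genes passed the threshold between the groups of lines. All 10 genes of a published ERK activity score (*Phlda1*, *Spry2*, *Spry4*, *Dusp4*, *Dusp6*, *Ccnd1*, *Epha2*, *Epha4*, *Etv4* and *Etv5*) were tested. Their differences ran from -0.16 to 0.48 with a median of 0.060, against 0.001 over all genes, and all 10 intervals lay within 1 log2 unit of 0. At an unadjusted p below 0.05 there were 2 of 10 higher, *Spry4* and *Etv5*, above the background of 3.54%. The lines with and without the allele separated for 0 of the 10, where 7.13% of all genes separated, so that this second count is near its background. In the same 4 lines 4-HT raised 8 of the 10 genes and lowered 1, with a median change of 0.90, where 4140 genes rose (30.6%) and 4183 fell (30.9%) of the 13516 tested. 4-HT also acts on *Apc* flox in all 4 lines and on *Trp53* LSL-R172H in the BPAC lines. The change with 4-HT is thus not that of *Braf* alone, and the part of each allele was not tested. The change with 4-HT and the difference before it share the EtOH cultures, so the values are given side by side and not as a test of each other.

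*Etv4*, an ETS factor induced by ERK, had 23.47 CPM in Col286, 21.9 in Col287, 23.95 in Col291 and 20.24 in Col312, against 22.04 CPM in Col288, 20.22 in Col290 and 17.65 in Col313. Its lines overlapped, and the difference of 0.17 (95% interval -0.06 to 0.39) stood beside a rise of 2.05 with 4-HT (edgeR adjusted p = 9e-08). *Phlda1*, a feedback gene of receptor signaling, differed by -0.08 (interval -0.27 to 0.11) and rose by 1.1 with 4-HT. *Dusp6*, the phosphatase that inactivates ERK, had 75.44, 86.44, 68.72 and 56.89 CPM in Col286, Col287, Col291 and Col312, and 63.76, 44.88 and 71.72 CPM in Col288, Col290 and Col313. It therefore differed among lines of one group by as much as between the groups, with a difference of 0.26 (interval -0.14 to 0.66) and a rise of 0.88 with 4-HT.

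*Spry4*, an inhibitor of receptor signaling upstream of RAS, was at 6.344 CPM in Col286, 8.157 in Col287, 6.283 in Col291 and 5.174 in Col312, against 4.295 in Col288, 4.772 in Col290 and 5.445 in Col313. Its difference was 0.42 (interval 0.03 to 0.81, edgeR adjusted p = 0.5355), beside a rise of 1.22 with 4-HT. *Etv5*, a relative of *Etv4*, differed by 0.48 (interval 0.03 to 0.93) beside a rise of 1.37, and its highest line was Col287 at 32.23 CPM. For both genes the range of the lines with the allele reached into that of the lines without, through Col312 and Col313. Without any one of Col286, Col287, Col288, Col290 or Col291 neither had an unadjusted p below 0.05, and the median of the 10 genes ran from 0.0082 without Col290 and 0.017 without Col287 to 0.0845 without Col291 and 0.1286 without Col312, where 2 were higher and 1 lower.

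**Figure D2:**
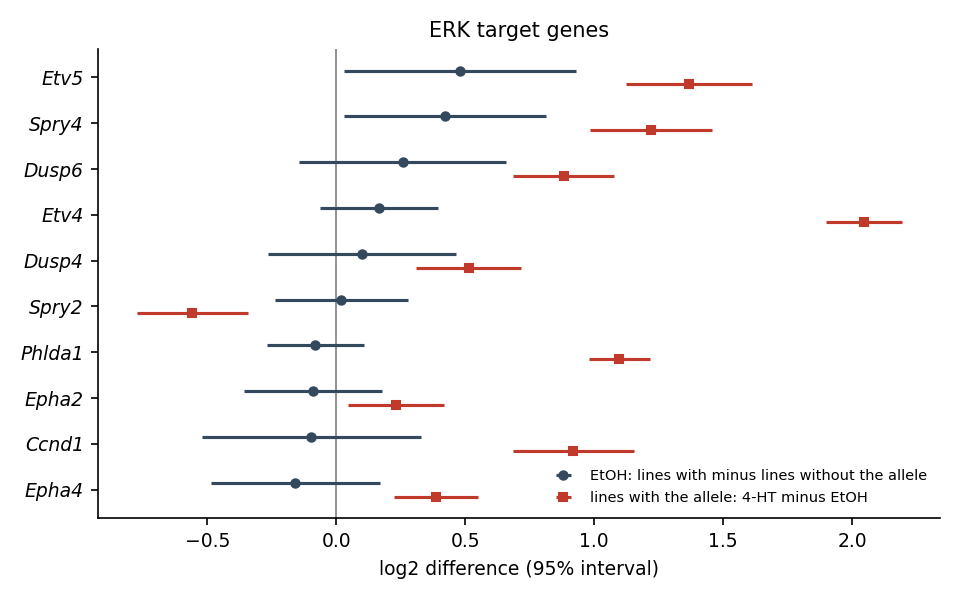
Log2 differences of the 10 ERK target genes with 95% intervals, sorted by the difference before recombination. Dark blue circles give EtOH cultures, 4 lines with minus 3 lines without the allele, and red squares give 4-HT minus EtOH in the 4 lines with the allele. The circles lie between -0.16 and 0.48 while 9 of the squares lie above 0, up to 2.05 for *Etv4*, of which *Epha2* (0.23) did not pass the threshold, and *Spry2* falls by 0.56 with 4-HT.

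Other genes that respond to ERK or AP-1 also held none past the threshold. Of 24 further genes 22 were tested, and the median was 0.03, with differences from -0.64 to 0.49. With 1 line left out the median ran from -0.023 without Col290 to 0.082 without Col291. *Areg*, a ligand of the EGF receptor, was the single gene of the 22 at an unadjusted p below 0.05 (background 5.69% lower) and was lower with the allele (-0.41, standard error 0.13), at 108.5 to 155.6 CPM with and 154.3 to 190.1 CPM without it. Without Col312 there were 2 higher and 3 lower, against 7.64% and 9.66% of all genes. Without Col288 there were 1 higher and 0 lower, against 1.63% and 2.39%. *Dusp7*, a phosphatase of ERK, differed by 0.21 (standard error 0.10), *Fosl1* and *Dusp5* by 0.19 and 0.23, and the immediate early genes *Fos* and *Egr1* by 0.15 and 0.19. With 4-HT 8 of the 22 rose and 8 fell (background 30.6% and 30.9%), *Dusp7* and *Fosl1* among those that rose and *Dusp5*, *Fos* and *Egr1* among those that fell.

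The 20 genes with the smallest p held 5 that were higher and 15 that were lower with the allele, none of which passed the threshold. *Rbms3*, which encodes an RNA-binding protein, had the smallest p (difference -1.06, standard error 0.18), at 1.773, 1.286, 1.571 and 1.579 CPM in Col286, Col287, Col291 and Col312 and at 2.986, 3.507 and 3.223 CPM in Col288, Col290 and Col313. *St8sia6*, a sialyltransferase gene, had the largest difference of the 20 (-2.28, standard error 0.44), with 0.2777, 0.1686, 0.4284 and 0.6857 CPM in the same order with and 2.716, 1.514 and 1.512 CPM without the allele. The lines did not overlap for either gene, which had 117.6 and 54.43 counts per line on average. Single cultures did not overlap for *Rbms3*, at 1.131 to 2.146 CPM with and 2.593 to 4.754 CPM without the allele. For *St8sia6* they overlapped, at 0.1106 to 0.7046 CPM with and 0.266 to 3.961 CPM without it.

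*Ly6e*, a GPI-anchored surface protein of the Ly6 family, was higher in each line with the allele. It stood at 172.3 CPM in Col286, 143.0 in Col287, 180.1 in Col291 and 124.0 in Col312, against 93.83 in Col288, 63.97 in Col290 and 87.83 in Col313, a difference of 0.92 (standard error 0.17). Its edgeR adjusted p was 0.5355. *Ly6a*, the family member known as a fetal and regenerative marker, went the other way by -0.25 (standard error 0.11) and its lines overlapped.

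Among the lower genes of the 20 were growth factor and endothelin ligands, *Btc* (-0.44) and *Edn1* (-0.43), the transcription factors *Prox1* (-0.84), *Zbtb20* (-0.59) and *Bbx* (-0.33), and the adaptor gene *Grb10* (-1.04). *Emp2*, a tetraspan membrane protein, differed by -0.35 (standard error 0.07), at 103.1 to 116.1 CPM with and 135.1 to 141.7 CPM without the allele. *Gab3*, *Sidt1*, *Tnfsf15*, *Heg1*, *Gm830* and *Lpin1* were lower too, by 0.34 to 1.60 log2 units, and *Hpdl*, *Acp5* and *Mettl7a1* were higher by 0.68, 0.36 and 0.46. For all 20 genes the 4 lines with the allele lay on one side of the 3 without (background 7.13%), and since the genes were chosen by their p this count is a description.

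Lists of epithelial cell states and pathways held no gene past the threshold. Stem cell and Wnt target genes leaned lower with the allele (16 of 20 negative, median -0.16), with 5 lower at an unadjusted p below 0.05 (background 5.69%). These were *Prox1*, *Tnfrsf19* (-1.48, standard error 0.40), *Axin2* (-0.50), *Sp5* (-0.58) and *Cd44* (-0.49), where *Axin2* is a direct target of Wnt signaling and had 29.2 to 43.96 CPM with and 40.61 to 59.62 CPM without the allele. Without Col288 there were 2 and the median was -0.095, and without Col312 there were 6. In duplicate 1 *Tnfrsf19* overlapped between the groups, at 0.7867 to 3.396 CPM with and 1.663 to 3.225 CPM without the allele. With 4-HT, 18 of the 20 rose in the lines with the allele (background 30.6%).

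Lists of differentiated cell types did not share 1 direction. Colonocyte and goblet genes were mixed, enteroendocrine genes leaned higher and tuft genes lower. Colonocyte genes were positive for 14 of 22 and negative for 8, and had 4 at an unadjusted p below 0.05, all higher (background 3.54%), namely *Saa1* (0.95), *Slc26a3* (0.83), *Car4* (0.78) and *Aqp8* (1.72), with a median of 0.12 over the list that ran from -0.0012 without Col287 and 0.069 without Col288 to 0.18 without Col291 and 0.20 without Col313. Among the negative members were *Car1* (-0.35), *Ces1g* (-0.43), *Guca2a* (-0.20) and *Muc13* (-0.16), the last lower in all 4 lines with the allele. The summed level of the list overlapped between the groups, at 21720 to 26080 CPM with and 23840 to 26890 CPM without the allele. *Slc26a3*, the chloride and bicarbonate exchanger of surface colonocytes, had 609.9, 560.1, 526.9 and 256.2 CPM in Col286, Col287, Col291 and Col312 against 287.7, 229.8 and 307.7 CPM in Col288, Col290 and Col313. Col312 thus lay among the lines without the allele, and the count over the list was 8 higher and 4 lower without Col312, 8 and 1 without Col313, and 1 and 0 without Col290, with the share of all genes also higher without Col312 or Col313 and lower without Col290. Goblet genes were positive for 7 of 13 and negative for 6, with a median of 0.023 that ran from -0.097 without Col286 to 0.17 without Col288 and was also negative without Col290 (-0.026) and Col313 (-0.063). They had 2 higher at an unadjusted p below 0.05 (background 3.54%), *Clca1* (1.04) and *Zg16* (0.76), both products of secreted mucus. *Ang4* (-0.72), *Retnlb* (-0.47) and *Spdef* (-0.20) were among the negative members. The count of goblet genes was 1 higher without Col290, 4 higher and 1 lower without Col312, and 2 and 2 without Col286 or Col313. Of 14 enteroendocrine genes 13 were positive (median 0.35), 0 reached an unadjusted p below 0.05, and 6 differed between lines within the groups (background 0.756%). Without Col312, 8 of the 14 were higher at an unadjusted p below 0.05 (median 0.61), against 7.64% of all genes, and without Col313 1 was (median 0.66). Their median was 0.14 without Col287, 0.23 without Col286 and 0.24 without Col290. *Gcg*, which encodes proglucagon, had 340.3, 210.2, 200.2 and 63.62 CPM in Col286, Col287, Col291 and Col312 and 122.2, 51.69 and 125.6 CPM in Col288, Col290 and Col313. All 9 tuft cell genes tested were negative (median -0.27), with *Cd24a* (-0.35) and *Ptgs1* (-0.74) at an unadjusted p below 0.05 (background 5.69%). Without Col288 the tuft median was -0.0039, and without Col291 it was -0.16, and without each of Col287, Col288, Col291 and Col313 1 of the genes had an unadjusted p below 0.05. In bulk organoids fewer cells of a type and less RNA per cell cannot be told apart.

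Mitochondrially encoded transcripts held no gene past the threshold. All 10 genes tested were negative (median -0.61), with 5 at an unadjusted p below 0.05 (background 5.69%), and their sum was 16140, 8234, 12100 and 14470 CPM in Col286, Col287, Col291 and Col312 against 19180, 24060 and 15160 CPM in Col288, Col290 and Col313. The lines overlapped through Col286 and Col313. These transcripts vary together within a library, so their count is not 10 separate results, and the share of all counts on them ran from 1.19% to 6.43% over cultures, higher in duplicate 2 than in duplicate 1 in 6 of the 7 lines. The count was 0 without Col290, 2 without Col288 or Col291, 8 without Col312 and 10 without Col286 or Col313.

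Counts at an unadjusted p below 0.05 in the remaining lists stand against backgrounds of 3.54% higher and 5.69% lower, and several moved when 1 line was left out, as did the share of all genes. Cell cycle genes had 3 of 17 higher (*Plk1* 0.26, *Cdc20* 0.23 and *Ccna2* 0.21) with a median of 0.11, against 1 without Col288 and 5 without Col287 or Col290. Their median was 0.058 without Col291 and 0.066 without Col288. NRF2 targets had 3 of 15 lower, *Gclc* (-0.34), *Slc7a11* (-0.60) and *Gsta1* (-0.41), against 1 without Col288 and 6 without Col312. Interferon and MHC genes had 2 of 28 higher, *Ifi27l2b* (0.33) and *Oas1a* (0.50), against 1 without Col290 and 4 without Col313. Fetal and serrated genes had 1 of 16 higher, *Ly6e*, against 4 higher without Col313, 2 higher and 4 lower without Col312, and 1 higher and 3 lower without Col290. Their median of -0.15 ran from -0.36 without Col290 to 0.20 without Col288. *Trp53* targets had 1 of 22 lower, *Sesn1* (-0.50), against 2 higher and 2 lower without Col313. Their median of 0.047 ran from -0.0091 without Col313 to 0.14 without Col288. Cholesterol synthesis genes (17 of 19 positive, median 0.10) had 0, and 6 higher without Col313 and 2 without Col312. Their median was 0.038 without Col288, 0.058 without Col287 and 0.19 without Col313. The 13 immediate early and stress genes, the 8 epithelial markers and the 9 sex-linked genes had 0 with all lines. Without Col313, 2 immediate early and stress genes and 3 sex-linked genes were higher. Without Col287, 2 immediate early and stress genes were lower, and without Col286 1 epithelial marker was lower.

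**Figure D3:**
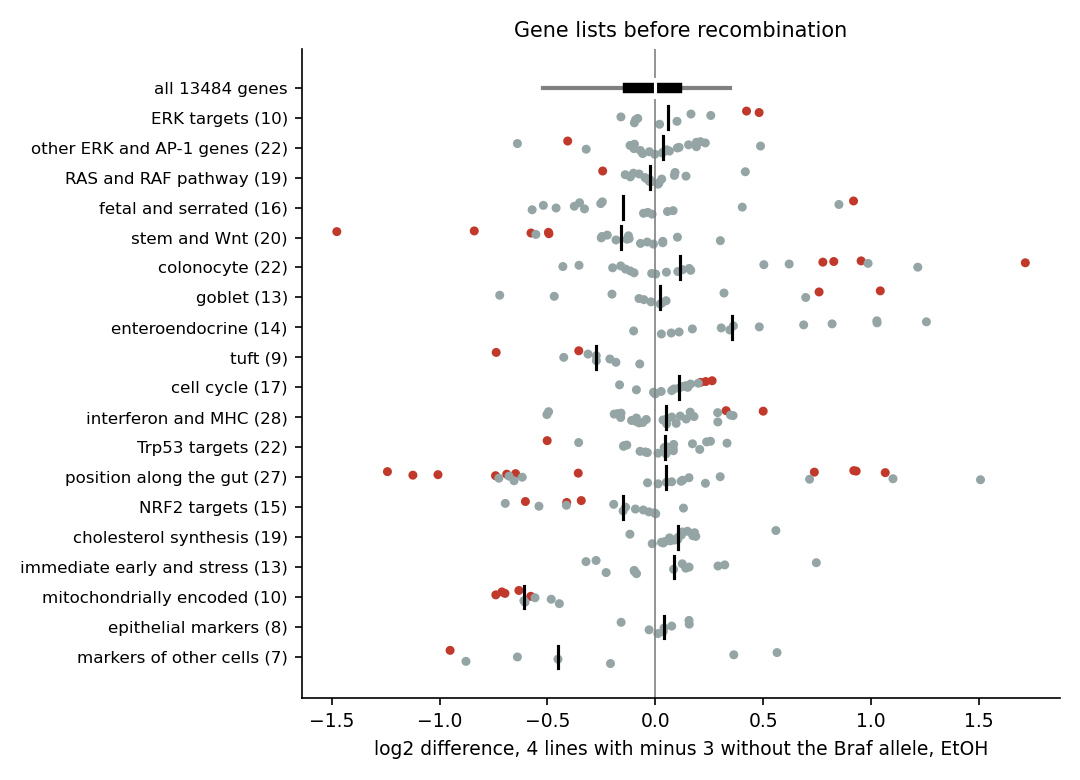
Log2 difference between the 4 lines with and the 3 lines without the allele in EtOH cultures, 1 point per gene, with the number of genes tested in brackets. Black ticks are list medians, red points have an unadjusted p below 0.05 and grey points do not, and the top row shows the middle 50 and 90 percent of all 13484 genes as thick and thin bars around their median. No point passes the adjusted threshold, and the mitochondrially encoded genes are the list whose median lies farthest from 0, at -0.61.

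Genes of position along the gut gave the widest spread. Of 41 genes looked up 27 were tested, and at an unadjusted p below 0.05 there were 4 higher and 7 lower, or 11 in all, the largest number of any list (background 3.54%, 5.69% and 9.23%). Hox genes specify position along the body axis, with high-numbered members active toward the rectum. Those of the Hoxa cluster from *Hoxa9* on were higher with the allele, *Hoxa9* by 0.92, *Hoxa10* by 0.93, *Hoxa11* by 0.74 and *Hoxa13* by 1.07, while *Hoxa5* and *Hoxa7* differed by 0.12 and 0.13. Those of the Hoxb cluster from *Hoxb3* to *Hoxb9* were lower, by -1.24 for *Hoxb4* to -0.36 for *Hoxb9*, with *Hoxb6* and *Hoxb8* not below 0.05. *Hoxa10* stood at 55.34 CPM in Col286, 51.47 in Col287 and 51.15 in Col291, but at 24.14 in Col312, against 21.44 in Col288, 17.52 in Col290 and 32.63 in Col313. *Hoxb7* had 10.08, 8.537 and 8.889 CPM in Col286, Col287 and Col291, 20.15 CPM in Col312, and 17.72, 20.79 and 19.09 CPM in the 3 lines without the allele. For *Hoxa10* and *Hoxb7* Col312, a BPAC line, lay with the lines that lacked the allele. Its single cultures had *Hoxa10* at 36.73 and 12.88 CPM, against 6.836 to 36.59 CPM in cultures without the allele.

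*Hoxb13*, the most distal gene of its cluster, varied most, at 63.91, 90.47, 95.85 and 9.1 CPM in Col286, Col287, Col291 and Col312 and at 13.66, 1.016 and 53.63 CPM in Col288, Col290 and Col313. It differed between lines within the *Braf* groups (edgeR adjusted p = 0.000152), as did *Osr2* (adjusted p = 0.0031), a transcription factor gene at 48.94 to 68.84 CPM in 3 lines with the allele and at 109.7 to 131.5 CPM in Col312 and the lines without it. Without Col312, 7 genes of the list were higher and 9 lower at an unadjusted p below 0.05, against 1 and 0 without Col290, 4 and 1 without Col286 or Col287, and 4 and 2 without Col288 or Col291. The segment of colon that each line came from is not given in the sources used here.

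**Figure D4:**
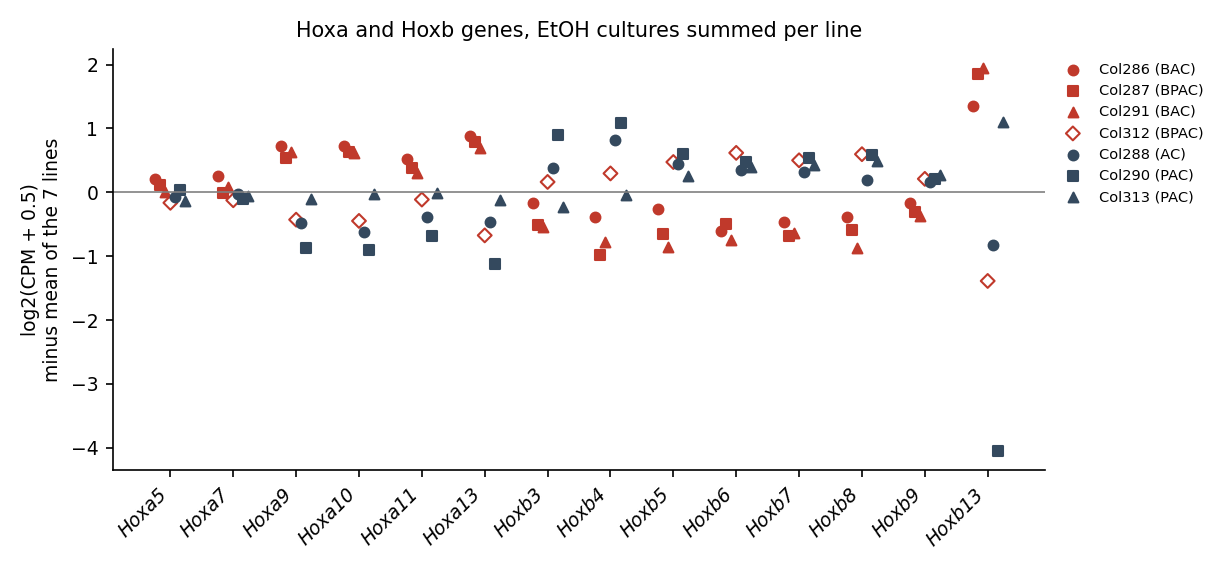
Log2(CPM + 0.5) of Hoxa and Hoxb genes in EtOH cultures summed per line, minus the mean of the 7 lines. Red symbols are lines with and dark blue symbols lines without the *Braf* allele, and the open diamond is Col312. Col286, Col287 and Col291 sit above 0 from *Hoxa9* to *Hoxa13* and below 0 from *Hoxb3* to *Hoxb9*. In these genes Col312 sits with the lines that lack the allele.

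Genes linked to the *Braf* locus were looked at because a targeted allele keeps neighbouring sequence of the cells it was made in. Within 10 Mb to either side of the start of *Braf*, 102 genes were tested, 0 passed the threshold and the median difference was 0.016, against -0.0005 over the other 555 genes of chromosome 6. At an unadjusted p below 0.05 there were 2 higher and 3 lower, *Braf* included, which is 5 of 102 genes against a background of 9.23%. *Akr1b3*, an aldose reductase gene, was higher by 0.22 (standard error 0.07), at 62.14 to 72.75 CPM with and 56.13 to 59.97 CPM without the allele. *Podxl*, a sialomucin gene of apical membranes, was lower with the allele (log2 difference -0.9985, standard error 0.33). It had 1.26 to 1.808 CPM in lines with the allele and 4.758, 1.974 and 2.076 CPM in Col288, Col290 and Col313. *Atp6v0e2* and *D630045J12Rik* differed by 0.36 and -0.54 and their lines overlapped. In the windows of 2, 5 and 20 Mb 0 of 26, 48 and 191 genes passed. At an unadjusted p below 0.05 there were 0 higher and 2 lower within 2 Mb and within 5 Mb, and 12 higher and 4 lower within 20 Mb. The Hoxa cluster lies in the widest window, with *Hoxa9* and *Hoxa10* at 12.62 and 12.63 Mb from the start of *Braf*. Of the 12 higher genes 8 were among the 13 genes tested from *Hoxa3* to *Hottip*, and the other 178 genes of the window had 4 higher and 4 lower. *Hoxa3*, looked at after its values were seen, was higher by 0.64 (standard error 0.15) and its lines did not overlap, whereas *Hoxa4* and *Hoxa6* differed by -0.14 and -0.02. Hoxa genes overlap antisense transcripts, and whether the counts used strand is not given in the sources used here. Col312 carries the allele and had *Hoxa10* at 24.14 CPM, within the 17.52 to 32.63 CPM of the lines without it, and the part of linkage in these differences was not tested.

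The *Trp53* transcript separated the lines by the other conditional allele and not by *Braf*. It was at 99.67 and 105.0 CPM in Col286 and Col291 and at 105.1 CPM in Col288, which lack *Trp53* LSL-R172H, and at 47.85, 52.61, 53.43 and 55.07 CPM in Col287, Col312, Col290 and Col313, which carry it. *Apc* differed by -0.10 (standard error 0.09) between the *Braf* groups.

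Lines differed from each other whatever their *Braf* allele. With the 2 cultures of a line as replicates and the duplicate number as a covariate, 102 of 13485 genes (0.756%) differed between lines within the *Braf* groups at an adjusted p of 0.01, and 206 differed among all 7 lines. Of the genes with at least 100 counts per culture, the 5 with the largest F were sex-linked, *Eif2s3y*, *Ddx3y*, *Xist*, *Kdm5d* and *Uty*. *Xist*, the RNA that silences one X chromosome in female cells, was at 70.64, 81.45 and 70.97 CPM in Col286, Col312 and Col313 and at most at 0.2108 CPM in the 4 others. *Ddx3y*, on the Y chromosome, was at 27.06, 35.24 and 28.75 CPM in Col288, Col290 and Col291 and at most at 0.02078 CPM in the 3 lines with *Xist*.

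Col287 held neither pattern. It had 0 *Xist* counts and *Ddx3y* at 5.965 CPM, *Kdm5d* at 3.942, *Uty* at 5.523 and *Eif2s3y* at 9.485 CPM, and the sum of the 4 was 25 and 24.8 CPM in its 2 cultures against 89.3 to 137 CPM in the cultures of Col288, Col290 and Col291. Lines with *Xist* thus numbered 2 of 4 with the allele and 1 of 3 without, and *Xist* state as a covariate, chosen after seeing the data, left 0 genes past the threshold. Kept to the 4 lines with fewer than 1000 *Xist* counts, 2 against 2, the test called 6 genes, *Aldh1l1*, *Aqp4*, *Clic6*, *St6galnac4*, *Thbs4* and *Wnt5a*, and 0 of the ERK targets. In that fit 3307 of 13480 genes had an unadjusted p below 0.05 and 368 an adjusted p below 0.05 (edgeR), more than in any other fit of the *Braf* comparison that was run.

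The next 5 by F were *Nxpe5*, *Ctsf*, *Scn2b*, *Mptx1* and *Gm21887*. *Nxpe5* was at 14.4, 16.08 and 14.37 CPM in Col286, Col287 and Col291, at 4.796 and 11.33 CPM in Col288 and Col313, at 0.04155 CPM in Col312 and listed at 0 in Col290. *Ctsf*, a cysteine cathepsin gene, ran from 3.205 CPM in Col313 to 21.23 CPM in Col286. *Scn2b*, a sodium channel subunit gene, was at 9.353 to 20.74 CPM in the 4 lines with *Trp53* LSL-R172H and at 0.6194 to 1.156 CPM in the 3 without, so its difference followed the other allele. *Mptx1*, a pentraxin gene, ran from 0.09583 CPM in Col290 to 18.23 CPM in Col313, and *Gm21887*, on the X chromosome, from 0.6408 to 12.55 CPM. Both have close relatives in the genome, and how the counting shared reads between copies is not given in the sources used here.

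Across all genes the cultures were ordered by duplicate more than by the *Braf* allele. Of the 14 cultures, 12 had their closest neighbour in the same duplicate number, 2 in the same line and 9 in the same *Braf* group. The Euclidean distance on log2 CPM had a median of 62.2 between lines of one *Braf* group and 62.3 between lines of different groups, both within a duplicate, and of 58.8 between the duplicates of a line. The difference between lines with and without the allele did not itself change detectably between duplicates, with 0 genes past the threshold and 1251 of 13485 at an unadjusted p below 0.05 (edgeR, interaction of allele and duplicate). Of genes named above, *Tnfrsf19* changed by -1.96, *Saa1* by 0.88 and *Car4* by 0.68 log2 units from duplicate 1 to 2. Their adjusted p in that edgeR test was 0.1536, 0.1543 and 0.1028.

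**Figure D5:**
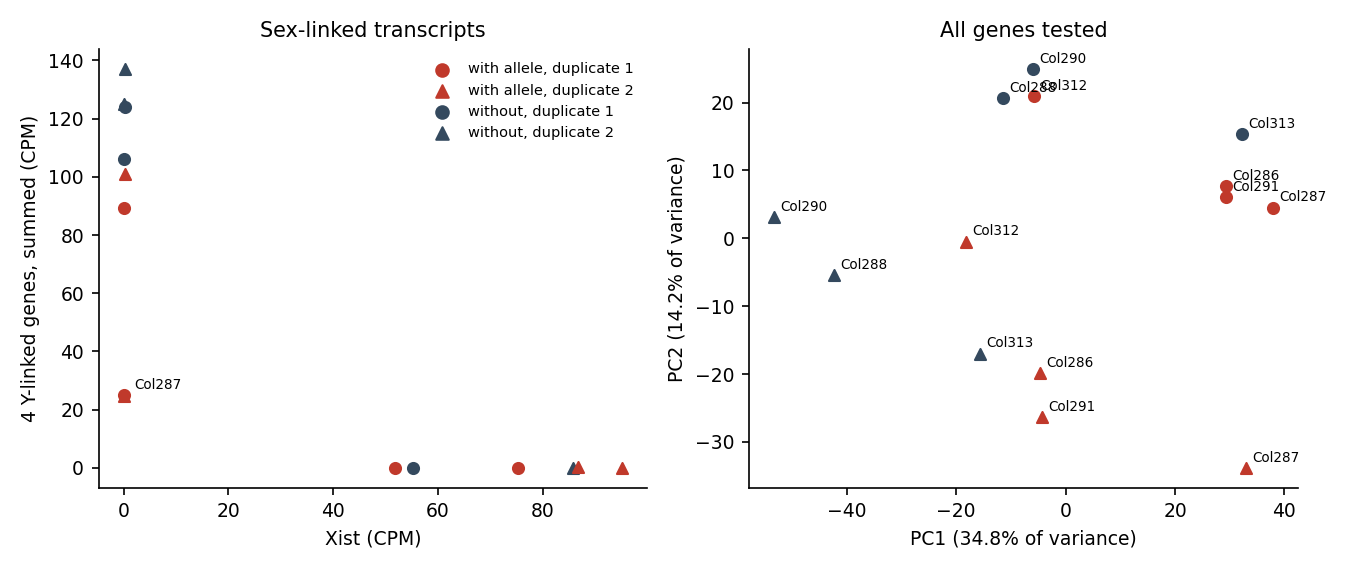
The 14 EtOH cultures by *Xist* against the summed level of 4 Y-linked genes in CPM (left) and by the first 2 principal components of log2 CPM (right). Red is with and dark blue without the *Braf* allele, circles are duplicate 1 and triangles duplicate 2. Both Col287 cultures lie at 0 for *Xist* and near 25 CPM for the Y-linked genes, and duplicates separate along the components more than the *Braf* groups do.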

How the data were processed

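The authors deposited raw counts per gene for 28 samples, made from reads aligned with STAR to GRCm38 (mm10). The submitters' processing notes name STAR 2.5.2b and Trimmomatic 0.39. The counting program, annotation and strandedness are not given in the sources used here. Of 13519 genes listed, 13479 had a symbol in GENCODE M21. Here the counts of both EtOH cultures of a line were summed and 7 lines were tested with edgeR 4.0.16 in R 4.3.3 (TMM, filterByExpr, quasi-likelihood test, Benjamini-Hochberg adjustment over all genes, threshold 0.01 as in the study). Limma 3.58.1 and DESeq2 1.42.0 were alternatives, since the study names limma without a design. Standard errors came from the log2 difference and F, intervals are 95%, and CPM values are TMM-scaled. Counts carry no molecular identifiers. The biological coefficient of variation was 0.168 between lines and 0.128 between cultures of a line. Line differences used F tests on 14 cultures with the duplicate number as a covariate, and 4-HT was tested in the 4 lines with the allele with line as a block.

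The duplicate numbers pair the cultures. The difference of duplicate 2 minus 1 correlated across genes between lines with r from 0.187 to 0.566 over 21 pairs of lines, so each sum holds 1 culture of each number. Named genes were the 3 targeted genes, the 20 with the smallest p (no gene passed the threshold), the 10 with the smallest p within 10 Mb of *Braf*, 10 ERK targets, 5 sex-linked genes with *Nnt*, the 10 with the largest F among lines within the *Braf* groups, and the 2 with the smallest p of each of 20 lists. Other list members are named as examples, chosen after their values were seen. The comparison, its members and the lists were chosen with earlier results of these data known, and the groups follow the genotype labels. The scripts were tested on simulated data. Figures were drawn with matplotlib 3.10.9. Some results are not reported here.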

Additional observations from a re-analysis of the deposited data

Results flagged for a closer look

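Among 103 groups of 4 values looked at (named genes in the 4 lines with the allele, and library values in the cultures of BAC, BPAC and PAC), 5 held a value far from the rest, where chance gives about 1 in 20. Col312 stood apart in *Nxpe5*, at 0.04155 CPM against 14.37 to 16.08 CPM in the other lines with the allele, and in *Hoxa10*, at 24.14 CPM against 51.15 to 55.34 CPM. Col287 stood apart in *Cd24a*, at 116.2 CPM against 145.5 to 149.8 CPM, in *Adck2*, at 22.51 CPM against 18.03 to 18.5 CPM, and in *D630045J12Rik*, at 2.34 CPM against 2.981 to 3.054 CPM. Of the 4-HT-treated cultures of lines without the allele, which enter no comparison here, duplicate 1 of Col313 held Y-linked counts at 53.5 CPM where its EtOH cultures held 0, and duplicate 1 of Col290 held *Xist* at 25.2 CPM where its EtOH cultures held 0.19 and 0.251 CPM.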

How the results depend on the processing

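The count of genes past the threshold for the *Braf* allele stayed at 0 in the alternatives run, except for 4 genes with DESeq2 and 6 in the 4 lines with fewer than 1000 *Xist* counts, an alternative chosen after seeing the data. The replicate block on 14 cultures left 0 genes past the threshold, with a lowest adjusted p of 0.05864 and 2253 genes at an unadjusted p below 0.05, and the paired fit changed no call of the *Braf* comparison. Leaving out 1 line gave 0 genes each time. At an unadjusted p below 0.05 there were then 474 without Col290, 542 without Col288, 635 without Col291, 2132 without Col313 and 2332 without Col312, and without Col312 87 genes had an adjusted p below 0.05. The ERK target median ran from 0.0082 to 0.1286 with 1 line left out. Near *Braf*, an unadjusted p of 0.05 gave 5 genes. Line differences fell from 206 and 102 (all lines and within the *Braf* groups) to 33 and 19 with no replicate block, and numbered 909 and 329 at an adjusted p of 0.05. With 1 line left out they ran from 84 to 421 (without Col288 and Col313, with 111 without Col290, 128 without Col291 and 134 without Col286) and from 52 to 112 (without Col312 and Col313). Small differences changed sign. With the *Trp53* allele as a covariate, *Trp53* gave -0.0815 and *Spry2* -0.0049. In duplicate 1 alone *Spry2* gave -0.0953, *Ccnd1* 0.2007 and *Epha4* 0.107, and in duplicate 2 alone *Trp53* gave -0.067 and *Gtse1* -0.0311. With 1 line left out, *Trp53* ran from -0.0914 to 0.4921, *Phlda1* from -0.1417 to 0.0154, *Spry2* from -0.0473 to 0.081, *Dusp4* from -0.0582 to 0.2216, *Ccnd1* from -0.3101 to 0.0162, *Epha2* from -0.1895 to 0.0044 and *Ddx3x* from -0.1267 to 0.0046. The cause of these shifts was not tested.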
